A study of Mus musculus with 9 samples.

Results

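Collagens are the triple-helical proteins that build the fibres and sheets of the extracellular matrix. The genes described here are those whose platform symbol has the form of a mouse collagen chain (Col, a type number, the letter a and a chain number) and that have a probe set assigned to a single gene. There were 44 such genes out of 19938 genes with a single-gene probe set, and they were measured by 46 probe sets. Where a gene had 2 probe sets, the one with the highest mean over the 9 arrays stood for it. By family, 8 were fibrillar collagens, 7 cartilage collagens, 8 basement membrane collagens, 6 fibril-associated collagens and 6 chains of the microfibril collagen VI. A further 4 were transmembrane collagens, and the remaining 5 were short-chain network, anchoring fibril and other collagens.

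The series measured RNA of nasal mucosa from BALB/c mice, an inbred strain, in a model of allergic rhinitis, on Affymetrix Mouse Gene 1.0 ST arrays. All animals were labelled male and 6 to 8 weeks old and were kept free of specific pathogens. Each of 3 groups had 3 arrays. The control group was given saline for both sensitisation and challenge; the OVA group received ovalbumin, the allergen from hen egg white, at both steps and was taken 2 hours after the last challenge; and the 4-week group had that ovalbumin treatment too but was taken 4 weeks after the last challenge. Avoidance of the allergen is the subject given in the title, and the comparisons address how collagen RNA stood shortly after challenge and after a spell without it. All values below are the authors' deposited log2 expression values, and a change is a difference of group means on that scale. Separate animals or extractions are not named for the 3 arrays of a group, so the p-values reflect no more than the spread among these arrays, which may be technical.

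The sex-linked genes did not match the labels. Xist, which coats and silences the inactive X chromosome of females, lay between 10.62 and 11.11 on the arrays labelled control and between 4.22 and 4.42 on the other 6. The Y-linked genes Eif2s3y and Uty ran the opposite way, at 3.00 to 3.58 and 3.31 to 3.55 on the arrays labelled control against 8.08 to 8.47 and 7.06 to 7.74 on the others. In every comparison with the arrays labelled control, ovalbumin treatment and this sex-linked pattern therefore cannot be told apart. The comparison of the 4-week with the OVA arrays has the same pattern on both sides. Whether the shared age of 6 to 8 weeks is that at the start or at sampling is not stated here. If it is the age at the start, the 4-week animals were older when taken. Age and time since challenge then cannot be told apart. Array medians lay between 6.38 and 6.45, and arrays correlated across genes at r = 0.986 to 0.992 within a group and 0.973 to 0.988 between groups. The tissue label was met by Omp, the marker of mature olfactory neurons, at 11.47 to 12.43, and by Bpifa1, a secreted protein of nasal glands, at 12.37 to 13.14. In bulk tissue, fewer cells of a type and less RNA per cell cannot be told apart.

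Each collagen chain is made as a procollagen in the endoplasmic reticulum, where prolines and lysines are hydroxylated and 3 chains wind into a helix. Fibrillar collagens are then trimmed outside the cell and crosslinked into fibres, mainly by fibroblasts and by the osteoblasts of the thin nasal bones, while chondrocytes of the nasal septum make the cartilage collagens. Collagen IV forms a sheet network beneath epithelia and around vessels, and in chronic airway allergy a thickened layer of collagen under the epithelium is a known part of airway remodelling.

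Few collagen genes passed the test, all of them lower, and all by small amounts. In limma's moderated test with Benjamini-Hochberg adjustment over 23410 probe sets, at an adjusted p under 0.05, 0 of 44 collagen genes were called in OVA minus control, against a background of 1.3% of all probe sets (0.782% higher and 0.521% lower). At an unadjusted p under 0.05, 3 collagen genes (6.82%) and 3834 probe sets (16.4%) fell below the threshold there. That count was 6 collagens (13.6%, all probe sets 23.9%) in 4-week minus OVA and 16 (36.4%, all probe sets 32.9%) in 4-week minus control; all later counts at an unadjusted p under 0.05 stand beside these shares of 16.4%, 23.9% and 32.9%. In 4-week minus OVA, 1 collagen gene was called lower (2.27%, background 6.33% in either direction and 2.51% lower), and in 4-week minus control 4 were called lower (9.09%, background 14.4% in either direction and 6.45% lower). The called genes were Col5a3, in both of the latter comparisons, and Col9a2, Col13a1 and Col28a1 in the last. On all 9 arrays Col5a3 (5.65 to 6.08) and Col28a1 (5.30 to 5.81) lay below the array medians of 6.38 to 6.45. Col13a1 (6.26 to 6.77) and Col9a2 (6.40 to 6.80) lay near those medians. Without detection calls, how far these 4 probe sets respond to their RNA is unknown. Among all probe sets the calls against the arrays labelled control at 4 weeks were divided between 7.92% higher and 6.45% lower, while the collagens had 0 called higher.

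The median change of the 44 genes was -0.05 at OVA minus control, -0.04 between the 4-week and OVA arrays and -0.06 for 4-week minus control, beside -0.02, -0.02 and -0.04 over all probe sets. The 95% interval of the change lay within 1.5-fold for 39, 37 and 38 of the 44 genes in those comparisons. No matching share of all probe sets is available, so these counts are not read as a trait of collagens. Without detection calls, a narrow interval does not show that the RNA itself was steady. Among the remainder were Col1a1, Col1a2 and Col10a1, whose values differed widely within a group.

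**Figure D1:**
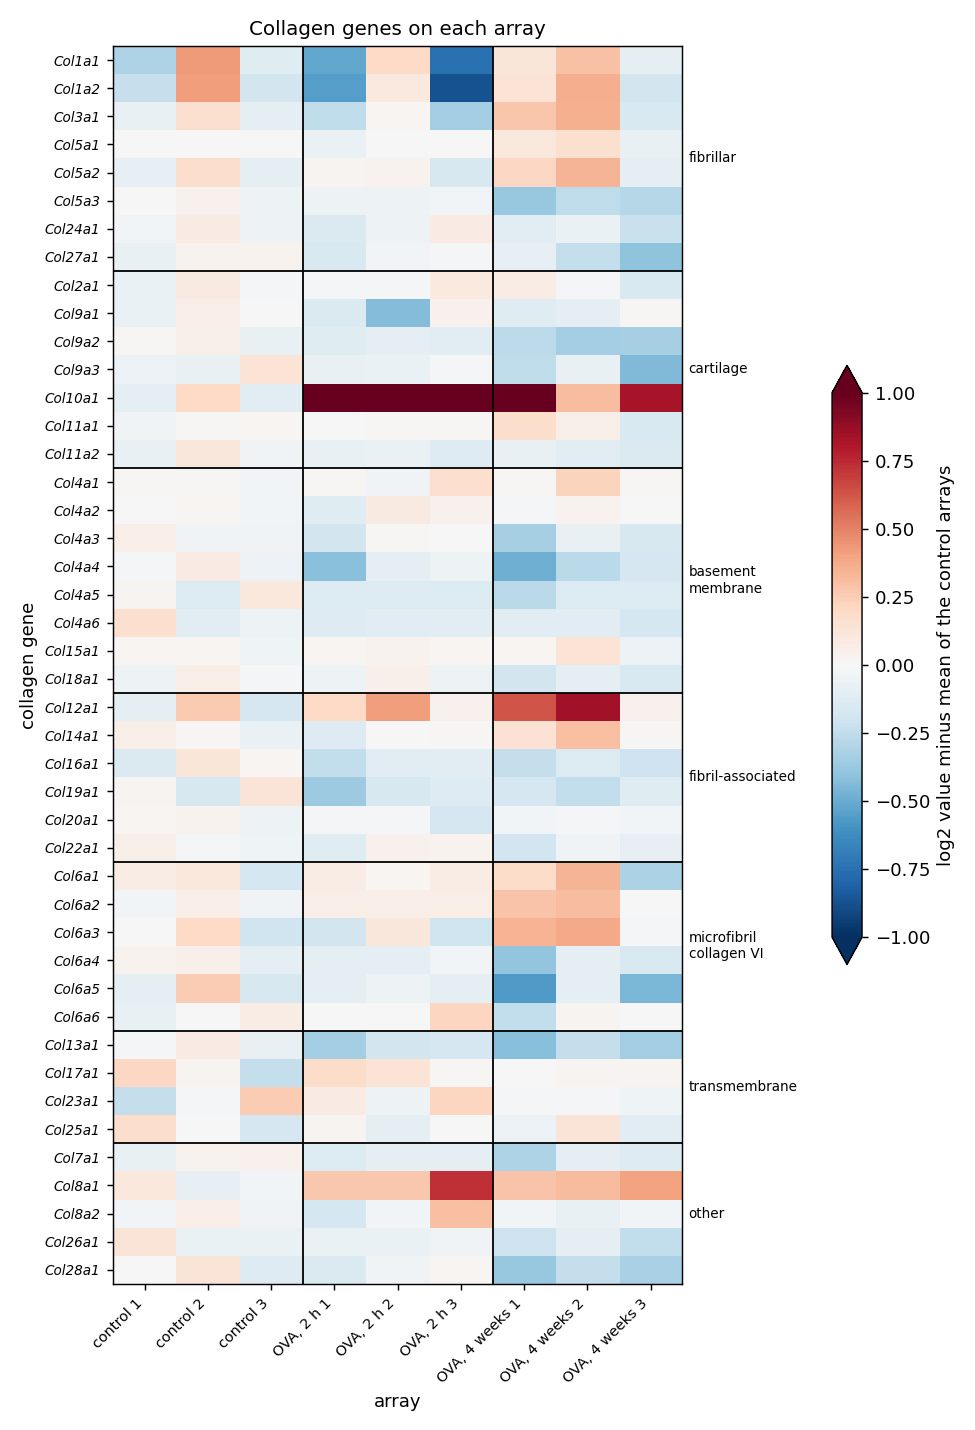
Log2 value of each of the 44 collagen genes (rows, by class) on each of the 9 arrays (columns), minus the mean of the 3 arrays labelled control; red is higher, blue lower, and the scale stops at 1.00 on either side. Col10a1 is the row beyond the scale, Col1a1 and Col1a2 are low on OVA arrays 1 and 3, and most other rows stay near 0.

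The upstream regions of 3 members are shown because Col1a2 and Col3a1 had closely similar array-by-array profiles and Col10a1 had the widest spread of all members. RefSeq promoter windows, 250 bases before to 50 after a start, were available for 35 of the 44 genes, in 38 windows. The 250 bases before the start on build GRCm38.p6 are chr1:45311288-45311537 for Col3a1, chr6:4505368-4505617 for Col1a2 and chr10:34389731-34389980 for Col10a1, all on the + strand. Capitals mark matches, searched on both strands, to the TATA box letters TATAAA, to the CCAAT box and to GGGCGG, the core letters of a GC box; no matches overlap in these windows.
Col3a1: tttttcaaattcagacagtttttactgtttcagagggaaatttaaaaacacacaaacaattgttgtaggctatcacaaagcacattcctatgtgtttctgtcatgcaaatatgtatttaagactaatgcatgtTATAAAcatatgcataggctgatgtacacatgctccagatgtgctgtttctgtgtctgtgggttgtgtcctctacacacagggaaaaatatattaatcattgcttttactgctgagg
Col1a2: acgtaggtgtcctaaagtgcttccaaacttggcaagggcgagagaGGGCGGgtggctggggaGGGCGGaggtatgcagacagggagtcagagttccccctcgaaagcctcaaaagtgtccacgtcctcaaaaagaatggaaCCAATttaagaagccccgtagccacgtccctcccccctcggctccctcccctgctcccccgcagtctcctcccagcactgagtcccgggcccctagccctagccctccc
Col10a1: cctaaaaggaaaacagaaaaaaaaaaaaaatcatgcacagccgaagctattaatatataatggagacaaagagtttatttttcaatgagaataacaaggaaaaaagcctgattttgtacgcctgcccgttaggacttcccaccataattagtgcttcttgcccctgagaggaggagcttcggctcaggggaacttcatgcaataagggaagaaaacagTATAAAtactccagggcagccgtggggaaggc

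The Col10a1 window held TATAAA beginning 32 bases before the start, and the Col3a1 window held it 117 bases before. The Col1a2 window held GGGCGG at 205 and 188 bases and CCAAT at 109 bases before the start, and no TATAAA. Within the 250 bases before the start, TATAAA stood in 13.2% of the 38 collagen windows and in 12.4% of all 32851 windows, and CCAAT in 34.2% and 33.8%. GGGCGG stood in 57.9% of the collagen windows and 32.7% of all windows. These are matches of letters and show no binding.

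Fibrillar collagens form the load-bearing fibres, and Col1a1 and Col1a2 encode the chains of type I collagen in bone and connective tissue. Col1a1 read 10.32, 11.06 and 10.51 on the arrays labelled control, 10.11, 10.83 and 9.88 on the OVA arrays, and 10.75, 10.92 and 10.54 on the 4-week arrays. Col1a2 read 9.86, 10.52 and 9.91, then 9.55, 10.20 and 9.23, then 10.23, 10.46 and 9.91 in the same order. The groups overlapped for both genes, array 2 was the highest of each group, and OVA array 3 was the lowest of all 9. Col1a1 had a change of -0.36 against the arrays labelled control in OVA and of 0.46 from OVA to 4 weeks, with limma adjusted p of 0.528 and 0.314. For Col1a2 the changes were -0.44 and 0.54, with limma adjusted p of 0.446 and 0.249. The 95% intervals of the 4-week minus OVA change ran from -0.12 to 1.04 for Col1a1 and from -0.05 to 1.14 for Col1a2.

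Col3a1, the type III collagen of soft connective tissue, followed the same arrays, at 7.46, 7.70 and 7.44 on those labelled control, 7.28, 7.55 and 7.18 in OVA, and 7.81, 7.89 and 7.38 at 4 weeks. Its change was 0.36 in 4-week minus OVA, with a limma adjusted p of 0.187, and the groups overlapped. Col5a2, a chain of the type V collagen that seeds type I fibres, read 6.32, 6.58 and 6.31, then 6.43, 6.44 and 6.25, then 6.61, 6.74 and 6.31. Its partner Col5a1 spanned only 6.59 to 6.83 over the 9 arrays.

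Some markers of bone and fibroblasts varied over the same arrays, Ibsp and Lum among those of the widest range. Ibsp, bone sialoprotein, read 8.82, 9.08 and 8.18 on the arrays labelled control, 8.74, 8.81 and 7.65 in OVA, and 9.26, 9.83 and 8.77 at 4 weeks. Lum, the fibroblast proteoglycan lumican, read 7.49, 7.88 and 6.87, then 7.55, 7.67 and 6.70, then 8.29, 8.43 and 7.57. OVA array 3 was the lowest of the 9 for both of these genes, as it was for Col1a1 and Col1a2. The osteoblast and osteocyte list had 7 of its 10 genes measured, and their summed linear signal was 755 to 1287 on the arrays labelled control, 629 to 1081 in OVA and 965 to 1782 at 4 weeks. In that list 1 gene was called, Sost, the secreted inhibitor made by osteocytes, which rose by 0.59 in 4-week minus control (limma adjusted p 0.0128). This 1 gene is 14.3% of the measured list, against 7.92% of all probe sets called higher. The fibroblast list was mixed. Of its 11 measured genes, 7 had a positive and 4 a negative change in 4-week minus OVA, with a median of 0.10 and a range of -0.37 (Fbln1) to 0.79 (Postn, Lum), and 5 were negative in 4-week minus control. Dcn, the fibroblast proteoglycan decorin, had its lowest value, 9.95, on 4-week array 3. The list, 11 of 12 measured, summed to 2691 to 3645, 2655 to 3224 and 2685 to 4594, and 0 of its genes were called in the 3 comparisons, with 2, 4 and 3 at an unadjusted p under 0.05. The deposited values carry no detection calls, so presence or absence of these markers cannot be read from them. Their part in the fibrillar collagen values was not tested.

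**Figure D2:**
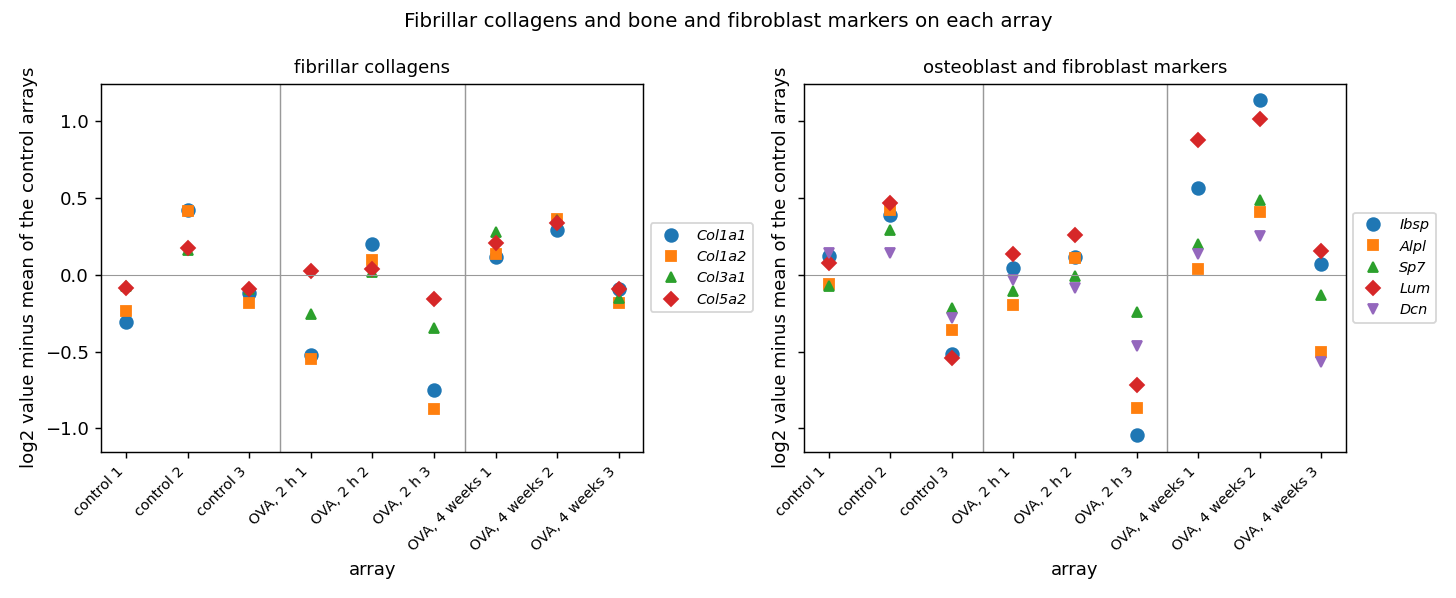
Log2 value minus the mean of the arrays labelled control, on each of the 9 arrays, for the fibrillar collagens Col1a1, Col1a2, Col3a1 and Col5a2 (left) and for bone and fibroblast markers (right). Points of 1 gene share a colour and shape. OVA array 3 is the lowest array for Col1a1, Col1a2, Col3a1, Col5a2, Ibsp, Alpl and Lum.

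Col5a3, the remaining chain of type V collagen, was the fibrillar collagen that fell. It read 6.03, 6.08 and 5.98 on the arrays labelled control, 5.98, 5.98 and 6.01 on the OVA arrays, and 5.65, 5.78 and 5.75 on the 4-week arrays. All 3 of the 4-week arrays lay below all 6 others. It was 1.2-fold lower than in OVA (log2 change -0.27, SE 0.06, limma adjusted p 0.0395) and 1.24-fold lower than in the arrays labelled control (-0.31, SE 0.06, limma adjusted p 0.0148). The first call was lost in 8 of the 9 fits that left out 1 array, every one but that without control array 3, in the fit of the 6 compared arrays alone (0.0719), with every row of the table (0.0526), under median centring (0.0579) and under renewed quantile normalization (0.0979). The second was lost without control array 2, with a limma adjusted p of 0.0501.

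Of the minor fibrillar chains, Col27a1, a collagen of developing cartilage, read 7.06, 7.17 and 7.17 on the arrays labelled control, 6.98, 7.11 and 7.12 in OVA, and 7.05, 6.89 and 6.73 at 4 weeks. All 3 of its 4-week values lay below the arrays labelled control, with a change of -0.24 and a limma adjusted p of 0.0992. Col24a1 was between 5.89 and 6.20 everywhere, and its 4-week arrays also lay below the arrays labelled control. The median change of the 8 fibrillar genes was -0.05, 0.13 and 0.08 when OVA was set against control, 4-week against OVA, and 4-week against control; this order holds for every run of 3 changes or counts given here. Type I, III and V chains other than Col5a3 had positive values in 4-week minus OVA, and Col5a3, Col24a1 and Col27a1 negative ones.

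**Figure D3:**
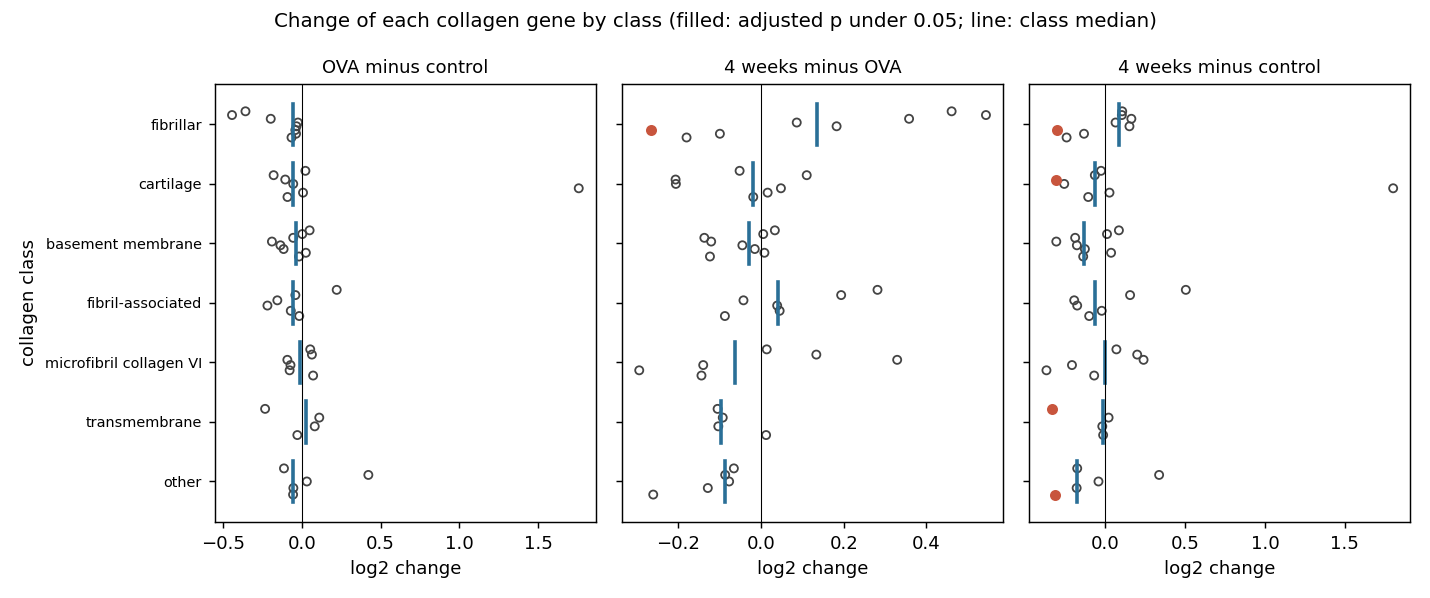
Log2 change (horizontal axis) of each collagen gene by class (vertical axis) in the 3 comparisons; the horizontal scale differs between panels. Filled points passed an adjusted p of 0.05, open points did not, and blue lines mark class medians; the fibrillar median lies at 0.13 in 4 weeks minus OVA and the basement membrane median at -0.13 in 4 weeks minus control.

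Among the cartilage collagens, Col10a1, the collagen of hypertrophic chondrocytes, had by far the widest range of values. It read 5.89, 6.18 and 5.87 on the arrays labelled control, 7.63, 7.03 and 8.54 on the OVA arrays, and 10.26, 6.29 and 6.80 on the 4-week arrays. All 6 ovalbumin arrays lay above all 3 labelled control, and the 4-week arrays differed most among themselves, with array 1 far above the other two. The difference of means was 1.76 in OVA minus control (3.38-fold, SE 0.89) and 1.80 in 4-week minus control (3.49-fold, SE 0.89). Neither passed, with limma adjusted p of 0.366 and 0.192. Without 4-week array 1 the 4-week minus control value dropped to 0.57 and the 4-week minus OVA value went from 0.05 to -1.19, with limma adjusted p of 0.368 and 0.128. In that same fit, OVA minus control had an adjusted p of 0.0585.

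Some other chondrocyte genes had high values on the same arrays, and those with the largest changes in OVA minus control are given first. Ucma, a secreted protein of cartilage, read 5.75, 5.73 and 5.31 on the arrays labelled control, 8.46, 6.69 and 8.49 in OVA, and 8.65, 5.06 and 5.09 at 4 weeks. Acan, the cartilage proteoglycan aggrecan, read 5.46, 6.06 and 5.41, then 6.68, 6.32 and 6.72, then 7.74, 5.87 and 5.06. Both were high on 4-week array 1 and low on the other 4-week arrays, where Ucma lay below every array labelled control, as did Acan on array 3. Matn1, a cartilage matrix adaptor protein, read 4.70, 4.67 and 4.52, then 6.20, 4.76 and 5.32, then 5.95, 4.52 and 4.15. Cytl1, a cytokine-like protein of cartilage that was chosen after its values were seen, read 6.30, 6.44 and 6.08, then 9.88, 8.35 and 10.38, then 10.12, 6.31 and 7.11.

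The rest of the list was mixed. Of its 12 genes, all measured, 10 had a positive and 2 a negative change in OVA minus control, from -0.42 (Epyc) to 2.29 (Ucma). The OVA arrays lay wholly above those labelled control for 5 (41.7% of the list, against 10.4% of all probe sets). In 4-week minus control 7 were positive and 5 negative. Sox9, the transcription factor of cartilage, was highest on 4-week array 2 (8.49), and Matn4 lay between 5.69 and 5.89 throughout. Of the 12, 0 were called in any of the 3 comparisons by limma (3, 0 and 1 at an unadjusted p under 0.05). Their median changes were 0.35, -0.25 and 0.15 in the same order. Summed linear signal over the list was 732 to 907 on the arrays labelled control, 1051 to 1573 in OVA and 773 to 1640 at 4 weeks. The part of cartilage content in the Col10a1 values was not tested. Col10a1 lies within Nt5dc1 in the RefSeq annotation; the Nt5dc1 probe set stayed between 7.42 and 7.75 on all 9 arrays and was looked at after the Col10a1 values were seen.

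The collagens of the main cartilage fibril did not follow Col10a1. Col2a1, its principal chain, lay between 6.61 and 6.85 on all 9 arrays, and Col11a1, which it assembles with, between 6.66 and 6.98. Their 95% intervals in OVA minus control were -0.15 to 0.20 and -0.18 to 0.20. Both probe sets lay not far above the array medians of 6.38 to 6.45, and each had 7 distinct values on the 9 arrays. Without detection calls, how far these 2 probe sets respond to their RNA is unknown. Col11a2 lay between 6.49 and 6.74, and Col9a1, a chain of the type IX collagen that coats the fibril, between 6.13 and 6.62.

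**Figure D4:**
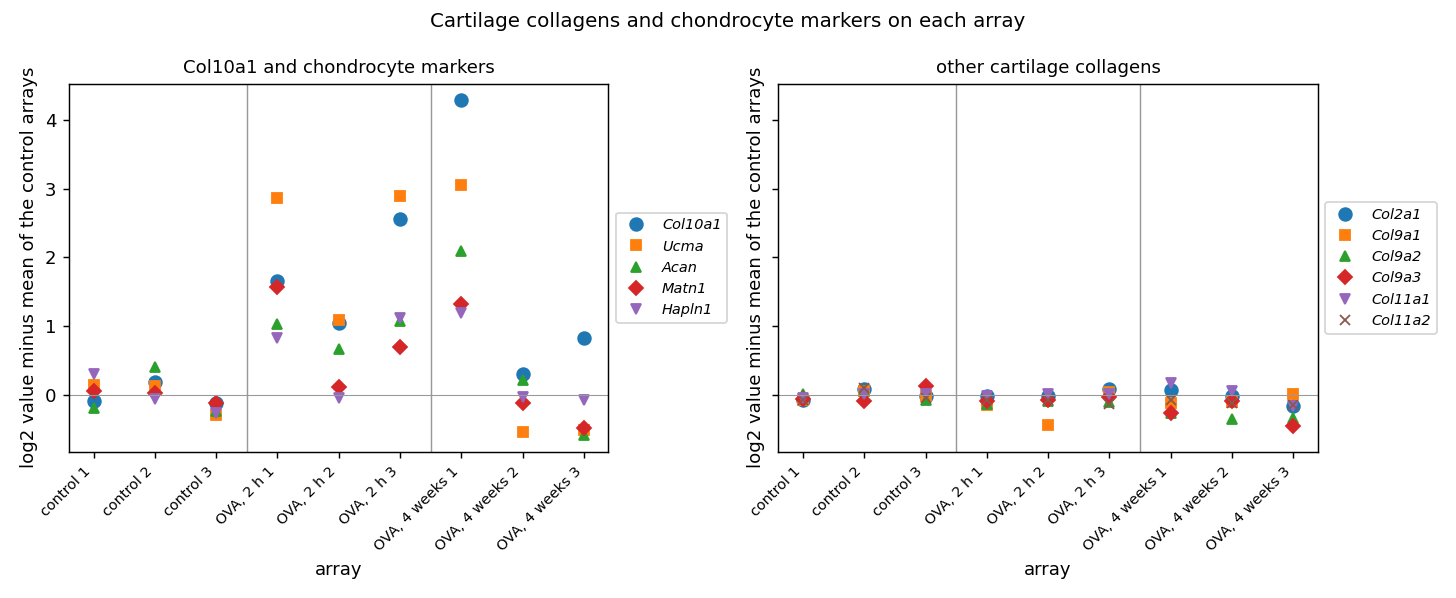
Log2 value minus the mean of the arrays labelled control, on each of the 9 arrays, for Col10a1 with the cartilage genes Ucma, Acan, Matn1 and Hapln1 (left) and for the other cartilage collagens (right). Both panels share a vertical scale; the left-hand genes are high on OVA arrays 1 and 3 and on 4-week array 1, Matn1 and Hapln1 stay near the level of the arrays labelled control on OVA array 2, and the right-hand genes stay near 0.

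Col9a2, another type IX chain, fell. It read 6.75, 6.80 and 6.67 on the arrays labelled control, 6.62, 6.65 and 6.64 on the OVA arrays and 6.48, 6.40 and 6.41 on the 4-week arrays. The 3 groups did not overlap at all, with the 4-week arrays lowest. It was 1.24-fold lower in 4-week minus control (log2 change -0.31, SE 0.06, limma adjusted p 0.0137), a call that was lost without 4-week array 2 (0.0509). In 4-week minus OVA the change was -0.21, with a limma adjusted p of 0.0837, or 0.0498 among the upper 60% of probe sets by mean. Col9a3, the remaining type IX chain, read 6.77, 6.75 and 6.97, then 6.75, 6.76 and 6.81, then 6.57, 6.75 and 6.39, a change of -0.26 in 4-week minus control (limma adjusted p 0.111). RefSeq places Col9a3 so that it overlaps Tcfl5, and the strand read by the probes was not examined.

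Basement membrane collagens had 0 of 8 genes called in any comparison, and 0, 0 and 2 at an unadjusted p under 0.05. Col4a1 and Col4a2, the chains of the ubiquitous collagen IV network, lay between 6.51 and 6.77 and between 6.48 and 6.69 on all 9 arrays. The 95% intervals of their changes in 4-week minus control were -0.10 to 0.27 and -0.15 to 0.17. These 2 genes lie head to head, and their RefSeq promoter windows share 78 bases. Col15a1 and Col18a1, which join basement membranes to the matrix beneath, lay between 6.13 and 6.33 and between 6.20 and 6.45.

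The tissue-restricted chains of collagen IV had lower 4-week values that did not pass the test. Col4a4 read 6.04, 6.14 and 6.00 on the arrays labelled control, 5.64, 5.97 and 6.01 in OVA, and 5.58, 5.79 and 5.89 at 4 weeks. Its change in 4-week minus control was -0.31 with a limma adjusted p of 0.102, and the 2 groups did not overlap. Col4a3, its neighbour in the genome and partner in the helix, read 5.56, 5.47 and 5.47, then 5.32, 5.52 and 5.51, then 5.17, 5.43 and 5.34, with a change of -0.19 (limma adjusted p 0.167). Col4a5 and Col4a6 lie on the X chromosome and spanned 5.42 to 5.80 and 4.84 to 5.17. The median change of the 8 basement membrane genes was -0.04, -0.03 and -0.13 in the 3 comparisons.

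Proteins that share the basement membrane with collagen IV were a mixed group. Of 14 measured of 15 listed, 0 were called in OVA minus control, 1 higher and 1 lower in 4-week minus OVA, and 1 higher in 4-week minus control. Each single gene is 7.14% of the list, beside 3.81% of all probe sets higher and 2.51% lower in 4-week minus OVA and 7.92% higher in 4-week minus control. The corresponding counts at an unadjusted p under 0.05 were 3, 4 and 2. Lamb1, the laminin beta-1 chain, read 6.83, 6.80 and 6.83 on the arrays labelled control, 6.60, 6.67 and 6.76 in OVA, and 7.05, 7.10 and 7.17 at 4 weeks. It rose by 0.43 in 4-week minus OVA (1.35-fold, limma adjusted p 0.00901) and by 0.29 in 4-week minus control (limma adjusted p 0.0232), the latter lost in 4 of the 9 fits without 1 array (control 2 or 3, 4-week 2 or 3). Agrn, the heparan sulphate proteoglycan agrin, fell by 0.31 in 4-week minus OVA (limma adjusted p 0.0386), a call lost in all 9 fits without 1 array, with every row of the table (0.0521), under median centring (0.0542) and with the compared groups alone (0.0793).

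Fibril-associated collagens sit on the surface of fibres and link them to their surroundings; 0 of 6 were called in any comparison (1, 1 and 2 at an unadjusted p under 0.05). Col12a1, the type XII chain of dense connective tissue, read 7.60, 7.95 and 7.53 on the arrays labelled control, 7.89, 8.12 and 7.74 in OVA, and 8.32, 8.53 and 7.74 at 4 weeks. The groups overlapped, since 4-week array 3 lay below control array 2. The change in 4-week minus control was 0.50 (1.42-fold) with a limma adjusted p of 0.123; without 4-week array 3 it was 0.74 with a limma adjusted p of 0.0268. Col14a1, the related type XIV chain, read 7.57, 7.51 and 7.44, then 7.38, 7.51 and 7.51, then 7.65, 7.81 and 7.52. Its 4-week arrays lay just above the OVA arrays, with a change of 0.19 and a limma adjusted p of 0.208. Col16a1, Col19a1, Col20a1 and Col22a1 had changes of -0.22 to 0.05 in the 3 comparisons.

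Collagen VI forms the beaded microfilaments around cells, and its chains were divided in sign. The common chains Col6a1, Col6a2 and Col6a3 had changes of 0.07, 0.20 and 0.24 in 4-week minus control, and the alternative chains Col6a4, Col6a5 and Col6a6 had -0.21, -0.37 and -0.07. None of the 6 was called by limma in any comparison, with 0, 1 and 3 at an unadjusted p under 0.05. Col6a3 read 6.74, 6.95 and 6.55 on the arrays labelled control, 6.57, 6.86 and 6.55 in OVA, and 7.09, 7.13 and 6.74 at 4 weeks. Col6a5 read 6.03, 6.37 and 5.95, then 6.03, 6.07 and 6.03, then 5.55, 6.03 and 5.66, and its limma adjusted p in 4-week minus control was 0.103. Leaving out 4-week array 3 brought Col6a2 past the threshold (0.30, limma adjusted p 0.0284), and leaving out 4-week array 2 brought Col6a5 past it (-0.51, limma adjusted p 0.0488). The dimmer second probe set of Col6a5 disagreed in sign with the first in OVA minus control, at 0.47 against -0.08. In 4-week minus control it had a change of -0.08 against -0.37. The dimmer second probe set of Col6a6 had the opposite sign to the first in all 3 comparisons, with 0.05 against -0.07 in 4-week minus control. The division in sign among the chains thus holds for the brighter probe sets only.

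Of the transmembrane collagens, Col13a1, which lies at cell-matrix junctions, fell. It read 6.67, 6.77 and 6.61 on the arrays labelled control, 6.34, 6.50 and 6.51 on the OVA arrays, and 6.26, 6.45 and 6.34 on the 4-week arrays. All 6 ovalbumin arrays lay below all 3 labelled control, and the OVA and 4-week arrays overlapped. It was 1.26-fold lower in 4-week minus control (log2 change -0.34, SE 0.08, limma adjusted p 0.0272). That call was lost without control array 1 or 2 or without 4-week array 1 or 3, with limma adjusted p up to 0.0842, and with the compared groups alone (0.0503). In OVA minus control the change was -0.23, with a limma adjusted p of 0.204. Col17a1, the hemidesmosome collagen of basal epithelial cells, lay between 6.51 and 6.95 with changes of 0.11, -0.09 and 0.02, and Col23a1 and Col25a1 had changes of at most 0.10 in size.

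In the last class, Col28a1, a collagen of peripheral nerve, read 5.68, 5.81 and 5.55 on the arrays labelled control, 5.53, 5.65 and 5.70 on the OVA arrays, and 5.30, 5.44 and 5.35 on the 4-week arrays. All 4-week arrays lay below all others. It fell 1.24-fold in 4-week minus control (log2 change -0.31, SE 0.08, limma adjusted p 0.0398). The call was lost in 7 of the 9 fits without 1 array, those that kept it being without control array 3 and without OVA array 1, under renewed quantile normalization (0.124), with every row of the table (0.0562) and with the compared groups alone (0.0730). Of 6 peripheral nerve glia markers, 4 were measured; their summed linear signal was 760 to 813 on the arrays labelled control, 880 to 1121 in OVA and 676 to 821 at 4 weeks. In that list 1 gene was called, Pmp22, a myelin protein, which fell by 0.62 in 4-week minus OVA (limma adjusted p 0.0294; with 1 array omitted, 6 of 9 fits did not call it, nor did the fit of the compared groups alone, at 0.0748). This 1 gene is 25% of the measured list, against 2.51% of all probe sets called lower. The part of the glia markers in the Col28a1 value was not tested.

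Col8a1, a short-chain collagen of vessel walls and other sheets, had the opposite sign. It read 7.14, 6.96 and 7.01 on the arrays labelled control, 7.30, 7.30 and 7.77 on the OVA arrays, and 7.32, 7.35 and 7.44 on the 4-week arrays. All 6 ovalbumin arrays lay above all 3 labelled control. Its difference from the arrays labelled control was 0.42 at 2 hours and 0.34 at 4 weeks, with limma adjusted p of 0.146 and 0.0995. Without OVA array 3, whose value of 7.77 was the highest, the 4-week minus control call passed at 0.0245. With the compared groups alone it passed at 0.045. Col7a1, the anchoring fibril collagen of epithelia, read 6.69, 6.79 and 6.81, then 6.63, 6.66 and 6.66, then 6.46, 6.66 and 6.64. Its values on all 6 ovalbumin arrays lay below the 3 labelled control, with a change of -0.18 in 4-week minus control (limma adjusted p 0.130). Col26a1 lay between 6.54 and 6.91 and Col8a2 between 6.22 and 6.70.

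**Figure D5:**
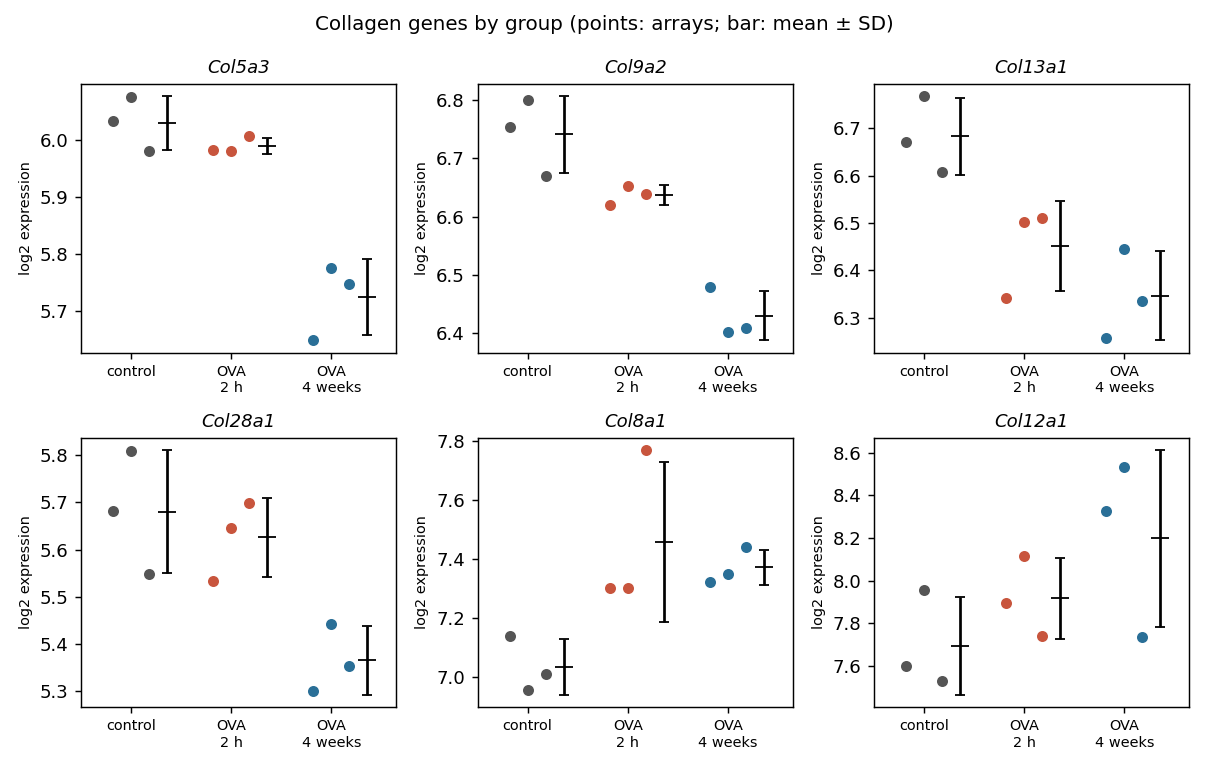
Log2 expression (vertical axis, a separate range in each panel) of the 4 called collagens and of Col8a1 and Col12a1 in the 3 groups (horizontal axis); points are arrays and bars the mean ± SD of 3 arrays. The 4-week points lie below every other point for Col5a3, Col9a2 and Col28a1, and the Col8a1 points of both ovalbumin groups lie above those labelled control.

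Counted by whether groups overlapped, 2 collagens (4.55%) stood wholly above and 3 (6.82%) wholly below the arrays labelled control in OVA. The shares of all probe sets were 10.4% and 11.1%. In 4-week minus OVA, 1 gene (Col14a1, 2.27%) stood wholly above and 5 (11.4%) wholly below, against 14.5% and 13.7%. At 4 weeks, 2 stood wholly above (4.55%) and 11 (25%) wholly below the arrays labelled control, against 16.6% and 18.4%. The 11 were Col5a3, Col24a1, Col27a1, Col9a2, Col4a3, Col4a4, Col18a1, Col13a1, Col7a1, Col26a1 and Col28a1.

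In the machinery that modifies and folds collagen, all calls but that of Fkbp14 were increases. Of 17 measured of 18 listed, 1 rose in OVA minus control (5.88%, background 0.782%), 0 were called in 4-week minus OVA, and 4 rose and 1 fell in 4-week minus control (23.5% higher, background 7.92%). At an unadjusted p under 0.05 the counts were 6, 1 and 7, or 35.3%, 5.88% and 41.2% of the list, beside 16.4%, 23.9% and 32.9% of all probe sets. P4ha1, the catalytic subunit of prolyl 4-hydroxylase, read 7.62, 7.58 and 7.62 on the arrays labelled control, 8.31, 8.22 and 8.03 on the OVA arrays, and 8.10, 8.03 and 8.09 on the 4-week arrays. All 6 ovalbumin arrays lay above all 3 labelled control. It rose by 0.58 in OVA minus control (1.49-fold, SE 0.08, limma adjusted p 0.0148) and by 0.47 in 4-week minus control (1.38-fold, SE 0.08, limma adjusted p 0.00738). The first call was lost without control array 2 (0.0691) or OVA array 1 (0.050) or with the compared groups alone (0.0554), and the second was kept in all 9 fits without 1 array.

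P4hb, the partner subunit and a general disulfide isomerase, read 10.29, 10.15 and 10.26, then 10.66, 10.36 and 10.55, then 10.60, 10.86 and 10.61. It rose by 0.46 in 4-week minus control (limma adjusted p 0.0210), a call lost without control array 2 or 3 or 4-week array 2 and under renewed quantile normalization (0.0695). P3h2, a prolyl 3-hydroxylase, rose by 0.40 (limma adjusted p 0.0295), lost without control array 2 or 3 or 4-week array 2 or 3 and with the compared groups alone (0.0509). Fkbp14, an endoplasmic reticulum proline isomerase, fell by 0.29 (limma adjusted p 0.0350), lost when any 1 array of either compared group was left out, under median centring (0.0563) and under renewed quantile normalization (0.0913). The chaperone Serpinh1, which binds the collagen helix, had changes of -0.11, 0.15 and 0.04 and was not called. P4ha1 and P4hb also serve other proteins, and the arrays do not tell which substrates they act on.

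Of the genes for procollagen secretion, processing and crosslinking, 14 of 16 were measured; 0 were called in OVA minus control (2 at an unadjusted p under 0.05), 1 rose in 4-week minus OVA and 2 rose in 4-week minus control. The genes that rose were 7.14% and then 14.3% of the list, beside 3.81% and 7.92% of all probe sets. Mia3, which loads procollagen into transport vesicles, read 8.55, 8.45 and 8.52, then 8.92, 8.76 and 8.74, then 8.82, 9.13 and 8.89, and rose by 0.44 in 4-week minus control (limma adjusted p 0.0172, lost without control array 2). Loxl1, a lysyl oxidase-like crosslinking enzyme, read 6.72, 6.91 and 6.63, then 6.69, 6.77 and 6.66, then 7.03, 7.01 and 7.06. Its 4-week arrays lay above all others, and it rose by 0.33 in 4-week minus OVA (limma adjusted p 0.0480) and by 0.28 in 4-week minus control (limma adjusted p 0.0491). With 1 array omitted, 7 and 8 of the 9 fits respectively did not call it, the exceptions being control arrays 2 and 3 for the first and control array 2 for the second; both calls were also lost with every row of the table (0.0634 and 0.0674) and with 1 probe set per gene (0.0542 and 0.0502), and the second with the compared groups alone (0.0914), under renewed quantile normalization (0.0545) and with array weights (0.0721).

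Collagen receptors, the integrins, discoidin domain receptors and others through which cells sense the matrix, had 9 of 10 genes measured and 0 called in any comparison by limma (2, 1 and 3 at an unadjusted p under 0.05). Itga11, the integrin chain of fibroblasts that binds type I collagen, read 6.27, 6.69 and 6.30 on the arrays labelled control, 6.02, 6.47 and 5.95 in OVA, and 6.50, 6.65 and 6.33 at 4 weeks. Like Col1a1 and Col1a2 it had its lowest value on OVA array 3. The list as a whole was mixed. In OVA minus control 6 of the 9 changes were positive and 3 negative, with a median of 0.16, while Itga11 was lower. In 4-week minus OVA 6 were again positive and 3 negative, with a median of 0.07.

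The TGF-beta pathway, a chief inducer of fibrillar collagen transcription in fibroblasts, had 14 of 15 listed genes measured. In OVA minus control 1 rose (7.14% of the list, background 0.782%). In 4-week minus OVA 0 were called (4 at an unadjusted p under 0.05), and in 4-week minus control 2 rose (14.3% of the list, background 7.92%). Ccn2, a matricellular protein and a classical TGF-beta target, read 8.64, 8.96 and 8.55 on the arrays labelled control, 9.31, 9.43 and 9.40 on the OVA arrays, and 9.48, 9.40 and 9.43 on the 4-week arrays. All 6 ovalbumin arrays lay above all 3 labelled control. It rose by 0.66 in OVA minus control (1.58-fold, limma adjusted p 0.0219) and by 0.72 in 4-week minus control (1.65-fold, limma adjusted p 0.00438). The first call was lost without control array 1 or 3 or any 1 OVA array, with every row of the table (0.050) and with the compared groups alone (0.0677), and the second was kept in all 9 fits without 1 array. Tgfb3, 1 of the ligands, rose by 0.31 in 4-week minus control (limma adjusted p 0.0196), lost without control array 1 or 3 or 4-week array 1 or 2 and with the compared groups alone (0.0525).

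Markers of other cells that make basement membrane or short-chain collagens were higher at 4 weeks in part. Of 8 endothelial markers, 2 rose in 4-week minus control (25%, background 7.92%): Cdh5, the vascular cadherin, by 0.46 (limma adjusted p 0.00789) and Pecam1 by 0.34 (limma adjusted p 0.0306, lost without control array 1 or 3 or 4-week array 1 or 2 and at 0.0677 with the compared groups alone). The summed linear signal of the list was 815 to 901 on the arrays labelled control, 916 to 982 in OVA and 930 to 1092 at 4 weeks. Of 6 pericyte and smooth muscle markers, 2 rose in 4-week minus control (33.3%): Rgs5, by 0.58 (limma adjusted p 0.0295), and Myh11, the smooth muscle myosin, by 0.43 (limma adjusted p 0.0180). Rgs5 lost its call without any 1 control array, without 4-week array 3 and under renewed quantile normalization (0.0742), and Myh11 without control array 3 or 4-week array 2. Myh11 also rose by 0.37 in 4-week minus OVA, the 1 call of the list there (16.7%, background 3.81%). That call was lost in 8 of the 9 fits without 1 array. It was also lost with every row of the table (limma adjusted p 0.0631), with 1 probe set per gene (0.0524) and with the compared groups alone (0.0806). The pericyte and smooth muscle list summed to 2286 to 2337, 2340 to 2714 and 2764 to 3039. Collagen IV chains, which these cells also make, were not called in 4-week minus control, and the part of vessel content in the Col8a1 and collagen IV values was not tested.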

How the data were processed

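Per the submitters' processing notes, the authors summarised the arrays with RMA, and each deposited value is a log2 expression level; which RMA program and probe set definitions were used is not given in the sources used here. They hold 35556 rows and 9 arrays and no detection calls, so signal over background is unknown. Values from 1.63 to 13.8 are the basis for calling the scale log2. The platform annotation of 2016 named 23410 rows, of which 21789 had 1 gene and 1621 several. The 44 collagen genes were all matched to RefSeq by Entrez number.

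All 9 arrays entered 1 fit in limma 3.58.1 (R 4.3.3; lmFit, contrasts.fit and eBayes; residual degrees of freedom 6, prior 2.98), each group having its own mean, and two-sided p-values were adjusted by Benjamini-Hochberg over 23410 rows. The fit was tested on simulated data. Intervals are 95% intervals from the moderated fit. RMA scales the arrays to each other, so much of a shift common to most genes would be removed. The deposited array medians still ran from 6.38 to 6.45. Of the 44 collagens, 26 (59.1%) had an equal value on 2 or more arrays, as did 53.5% of all genes. The number of arrays, 3 a group, limits the precision.

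All collagen genes are described. By rule, those named as results passed the threshold, had a change of at least 0.8 or were among the 3 of their class with the smallest F-test p; of the other lists, up to 4 called genes per comparison were named. Other collagens, such as Col1a1, Col1a2, Col5a2 and Col14a1, are given beyond this rule. So are uncalled list members, such as Ibsp, Lum, Dcn, Ucma, Acan and Matn1. Cytl1, Serpinh1 and Itga11 were among the genes chosen after values were seen. The members and lists were chosen with earlier results of these data known. Listed genes without a single-gene probe set were not analysed here. Summed signals are sums of 2 to the power of the log2 values. The alternatives were renewed quantile normalization, median centring, the upper 60% of probe sets, every row, 1 probe set per gene, the median of a gene's probe sets, the compared groups alone, a trended robust prior, array weights, a replicate block and each array left out in turn. Figures were drawn with matplotlib 3.10.9 in Python 3.11.15.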

Additional observations from a re-analysis of the deposited data

How the results depend on the processing

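The number of collagen genes called in OVA minus control was 0 under every alternative run. In 4-week minus OVA the single call, Col5a3, gave way to 0 calls under renewed quantile normalization, median centring, every row of the table and the fit of the compared groups alone, and the count was 0 to 1 with 1 array left out. Among the upper 60% of probe sets by mean, which leave out Col5a3 and Col28a1, the single call was Col9a2 (-0.21, limma adjusted p 0.0498). In 4-week minus control the 4 calls became 2 among the 36 collagens in the upper 60% of probe sets, and 1 to 4 with 1 array left out, lowest without control array 2. With the compared groups alone, Col13a1 and Col28a1 lost their calls (limma adjusted p 0.0503 and 0.0730). In that fit Col8a1 was called higher (0.045). Median changes of under 0.15 moved with the scaling. Under renewed quantile normalization those in 4-week minus OVA became 0.013 for all collagens and 0.019 for cartilage, and those in 4-week minus control became -0.036 for fibrillar, -0.026 for cartilage and -0.046 for basement membrane collagens. In the upper 60% the last was 0.022. With 1 array left out, the cartilage median ran from -0.083 to 0.015 in OVA minus control and from -0.10 to 0.0090 in 4-week minus OVA, and the fibrillar median from 0.064 to 0.23 in 4-week minus OVA and from -0.031 to 0.17 in 4-week minus control. Over all probe sets, the 305 calls of OVA minus control became 143 with every row and 109 with the compared groups alone, and 63 to 305 with 1 array left out. The 1481 calls of 4-week minus OVA became 946 with 1 probe set per gene and 737 with the compared groups alone, and 446 to 1361 with 1 array left out. The 3364 calls of 4-week minus control became 2054 with the compared groups alone and 1560 to 2966 with 1 array left out. The cause of these shifts was not tested, except that leaving out arrays or groups leaves fewer samples. No collagen called in a comparison changed sign. Same-numbered arrays correlated at -0.12 to 0.25 in their deviations from the group means, so the numbers were not taken to pair the samples. With the replicate number as a block, the probe sets called were 213, 1397 and 3271 in the 3 comparisons, and the collagens called were 0, 1 (Col1a2, limma adjusted p 0.0416, in place of Col5a3) and 6 (adding Col12a1 and Col6a5).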

Other observations

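Chondrocyte-type genes outside the marker list, chosen after their values were seen, gave further array profiles beside Col10a1. Clec3a, a lectin of cartilage, read 5.25, 5.65 and 5.32 on the arrays labelled control, 6.51, 5.65 and 6.85 in OVA, and 7.41, 4.87 and 5.37 at 4 weeks. Frzb, a secreted Wnt antagonist of cartilage, read 5.03, 5.10 and 4.74, then 5.62, 5.34 and 6.27, then 6.68, 5.52 and 5.41. Both had their highest value on 4-week array 1, as did Col10a1. Markers of basal epithelium, respiratory epithelium and skeletal muscle had 0 of 6 genes each called in any of the 3 comparisons by limma. At an unadjusted p under 0.05 the counts were 0, 1 and 0 for basal epithelium, 1, 0 and 0 for respiratory epithelium, and 0, 0 and 0 for skeletal muscle. Of 6 olfactory neuron markers, Gnal, the olfactory G protein subunit, fell by 0.44 in 4-week minus control (limma adjusted p 0.0349; with 1 array omitted, 7 of 9 fits did not call it, nor did the fits with every row, at 0.0507, and with the compared groups alone, at 0.0782). This 1 gene is 16.7% of the list, against 6.45% of all probe sets called lower.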
